A study of Mus musculus with 2 samples.

Results

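The cytochrome P450 family was followed in primary mouse keratinocytes, which form the epidermis, on 2 Agilent expression arrays. Its members were the genes whose symbol is Cyp with a family number, a subfamily letter and a gene number, matched through the RefSeq accession of each probe. Pseudogenes and a few genes named by the rule were left out. This gave 93 genes with 114 probes among 20144 named genes on the array. They were grouped by symbol alone into family 1 (3 genes), subfamily 2b (5), the rest of family 2 (40), subfamily 4f (8), the rest of family 4 (11), family 26 (3), family 27 (2) and the other families (21). RNA of 1 sample was labelled Rac1/Rac3-DKO, lacking the small GTPases Rac1 and Rac3, and RNA of 1 sample was labelled Rac3-KO and named as the control, so that by label both lacked Rac3. The labels describe both as P3 primary keratinocytes and spell out neither P3 nor the deleted part of either gene, and the strain, the number of animals and the way Rac1 was deleted are not given in the sources used here. Each genotype had 1 array and no replicate, so no difference was tested and none has an error that holds variation between cultures or animals.

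Cytochrome P450 enzymes are haem proteins that insert an oxygen atom into lipids, steroids, vitamins and foreign compounds. Most sit in the endoplasmic reticulum and receive electrons from the reductase Por, while a few mitochondrial members receive them from the ferredoxin Fdx1 and its reductase Fdxr. Liver is the richest source of the drug-metabolising families. Skin is known for a smaller set, which turns over retinoic acid, activates vitamin D, oxidises fatty acids of the barrier and makes signalling lipids from arachidonic acid.

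The unscaled 75th percentile of the processed signal was 354 on the DKO-labelled array and 705 on the Rac3-KO array, so levels are given on the log2 scale relative to each array's own 75th percentile and differences are DKO-labelled minus Rac3-KO. The lowest signal well above background, a flag set by the scanner software, was 20.1 on the DKO-labelled array and 23.4 on the Rac3-KO array. The brighter Rac1 probe had a signal of 12140 on the DKO-labelled array and 19847 on the Rac3-KO array, a log2 difference of 0.28, and the other Rac1 probe differed by -0.12. The Rac1 probes were thus not lower beyond the software's signal error of 0.20 on the array labelled as lacking Rac1, and Rac3 was well above background on both arrays (signals of 59.1 and 99.8). Whether the probes lie in the deleted parts is not known. Markers of other tissues were present. The summed level of 12 striated muscle markers was 2506 times the 75th percentile on the DKO-labelled array and 457 times on the Rac3-KO array, and that of 9 leukocyte markers was 136 and 57.9 times. The summed level of 8 basal keratinocyte markers was 228 times on the DKO-labelled array and 624 times on the Rac3-KO array, with 5 of 8 at least 2-fold lower. That of 11 differentiated keratinocyte markers was 23.8 and 289 times, with 8 of 9 measured ones at least 2-fold lower. Of all measured genes, 6.62% were at least 2-fold lower. Of 8 hepatocyte markers, Apoa2, Tat and Serpina1a passed the flag on both arrays, Ahsg on the DKO-labelled array alone, Alb on the Rac3-KO array alone, and Apoa1, Ttr and Fgb on neither, with a summed level of 6.12 times on the DKO-labelled array and 4.07 times on the Rac3-KO array. The Y-linked genes Ddx3y and Eif2s3y were detected on the Rac3-KO array alone, with signals of 984 and 2498 there. Xist, expressed from the inactive X chromosome, was detected on both, with signals of 591 and 529 for its 2 probes on the DKO-labelled array and 673 and 521 on the Rac3-KO array. In these bulk samples fewer cells of a type and less RNA per cell cannot be told apart, and the part of the cell mixture or of sex in any P450 difference was not tested.

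Fewer P450 genes were detected than genes at large. Of the 93 members, 35 (37.6%) were measured, meaning that the gene's brightest probe passed the background flag on each array, against 70.2% of all named genes. Another 3 had a probe passing on the DKO-labelled array alone, beside 1.14% of all named genes, and 9 on the Rac3-KO array alone, beside 4.26%. The remaining 46 (49.5%) were detected on neither array, against 24.3% of all named genes. The undetected members included 8 of the 12 probed Cyp2c genes in the cluster on chromosome 19 and 6 of the 7 probed Cyp3a genes in the cluster on chromosome 5.

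On the DKO-labelled array Cyp2b10 and Cyp2g1 were lower by 2-fold or more, and Cyp1b1, Cyp17a1 and Cyp4a31 higher by 2-fold or more. Scaled to the spike-in RNAs, where the median of all measured genes was -2.06, these 3 genes turned to -0.23, -0.72 and -0.83, so their direction holds relative to the other genes of each array. The 2 lower members were 5.71% of the 35 measured, beside 6.62% of 14144 measured genes. The 3 higher members were 8.57%, beside 7.71% of measured genes. Both shares lay near those of all measured genes. The measured member nearest to the threshold on the low side was Cyp2j9 at -0.79 and on the high side Cyp4a10 at 0.96. The software's signal error of a log2 difference was 0.21 at the median of the 35 members, and 26 of them (74.3%) lay outside the 95% normal range of their own error, beside 48.5% of all measured genes. That error covers technical error within an array alone.

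**Figure D1:**
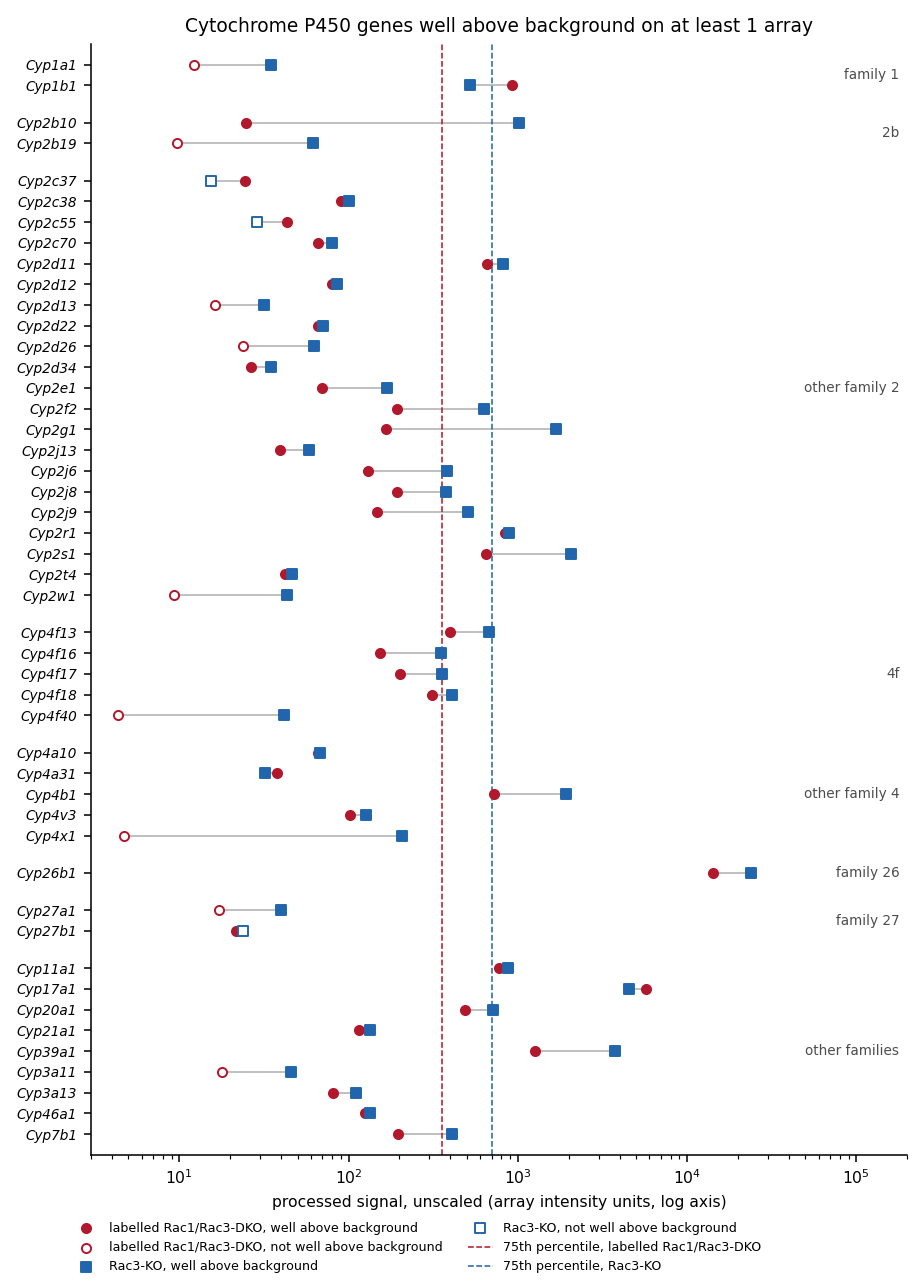
Unscaled processed signal (log axis) of the 47 P450 genes well above background on at least 1 array, grouped by family, with the DKO-labelled array as circles and the Rac3-KO array as squares; open symbols were not well above background and dashed lines are the arrays' 75th percentiles. Signals of different probes are not comparable with each other; within a gene, Cyp2b10, Cyp4x1 and Cyp2g1 are the widest apart, and Cyp1b1, Cyp17a1 and Cyp4a31 are the 3 measured genes with the brighter signal on the DKO-labelled array.

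Most measured members had a difference above 0. The median over the 35 was 0.55, against -0.01 over all measured genes, and 24 of 35 (68.6%) lay above 0, against 49.4% of measured genes. The other 11 lay below 0, beside 50.6% of measured genes. Probes that were below background on both arrays had a median difference of 0.66 on the same scale, with 5th and 95th percentiles of -0.67 and 1.78. The 62 P450 probes of that kind had a median of 0.64. Measured genes whose mean level lay below -3 had a median of 0.33, and 4 P450 members fell in that range, with a median of 0.73. Another 13 members had a mean level between -3 and -1, where all measured genes had a median of 0.02 and the members one of 0.71. The 13 members between -1 and 1 had a median of 0.24, where all measured genes had one of -0.10. The 3 members between 1 and 3 had a median of -0.58, where all measured genes had one of -0.06. The 2 members above 3 had a median of 0.79, where all measured genes had one of 0.07. The part of the detection floor in these values was not tested. Without scaling, 3 of the 35 members had a higher signal on the DKO-labelled array, or 8.57% of them beside 7.82% of measured genes.

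**Figure D2:**
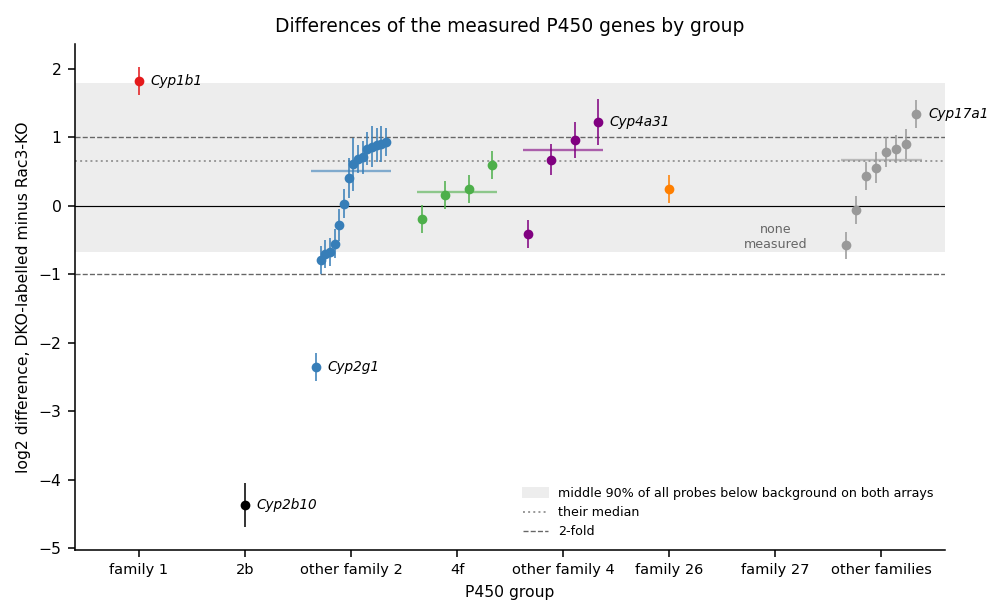
Log2 difference of each of the 35 measured P450 genes, DKO-labelled minus Rac3-KO, by group; points are genes, error bars the software's signal error, coloured bars medians of groups with several genes, and the grey band the range between the 5th and 95th percentiles of all probes below background on both arrays (-0.67 to 1.78). Cyp2b10 and Cyp2g1 are the only points below -1, Cyp1b1 lies just above the band, and no gene of family 27 was measured.

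**Figure D3:**
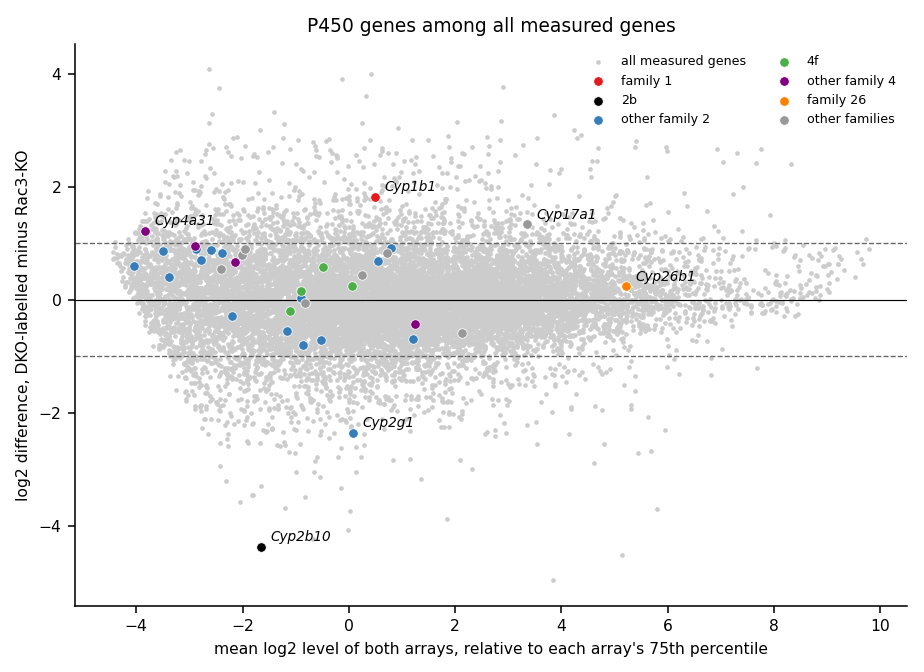
Log2 difference of all 14144 measured genes (grey) and of the 35 measured P450 genes (coloured by group) against the mean log2 level of both arrays. Cyp2b10 at -4.37 is the lowest P450 point, and most other members lie between the dashed 2-fold lines.

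Subfamily 2b held the lowest value of the family. Cyp2b10, the classic phenobarbital-inducible P450 of mouse liver, had a signal of 24.7 on the DKO-labelled array and 1017 on the Rac3-KO array, a log2 difference of -4.37 (signal error 0.32), or 20.7-fold lower. The lowest signal that passed the background flag on the DKO-labelled array was 20.1. With normexp background correction the Cyp2b10 difference was -2.88, and under a stricter filter, which asked for 2 times the lowest passing signal on each array, Cyp2b10 no longer counted as measured. Cyp2b19, a keratinocyte epoxygenase of arachidonic acid in the mouse, was detected on the Rac3-KO array alone, with signals of 9.74 on the DKO-labelled array and 61.6 on the Rac3-KO array, or at least 1.54-fold lower. Cyp2b9, Cyp2b13 and Cyp2b23 were detected on neither array, with signals of 4.15 to 5.21 on the DKO-labelled array and 4.85 to 12.2 on the Rac3-KO array. The members seen in these cells were thus 2 of 5, and both were dimmer on the DKO-labelled array. Subfamily 2b genes are close copies whose probes may share signal.

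The start regions of the 2 detected Cyp2b genes and of Cyp1b1 are printed, Cyp2b10 and Cyp1b1 because they had the lowest and the highest difference of the family and Cyp2b19 because it is a close copy of Cyp2b10. Each is the RefSeq window (GRCm38.p6) of 250 bases before to 50 bases after the annotated start, in sense direction, and capitals mark any match, on either strand, to 5 motifs, of which none overlap in these windows. They were TATAAA for the box of that name, AGGTCA for a nuclear receptor half-site, GCGTG for the core of the aryl hydrocarbon receptor element, TGANTCA for the AP-1 element and GGGCGG for the GC box. The window of Cyp2b10 is chr7:25897408-25897707 on the plus strand, that of Cyp2b19 chr7:26756892-26757191 on the plus strand, and that of Cyp1b1 chr17:79715012-79715311 on the minus strand.
Cyp2b10: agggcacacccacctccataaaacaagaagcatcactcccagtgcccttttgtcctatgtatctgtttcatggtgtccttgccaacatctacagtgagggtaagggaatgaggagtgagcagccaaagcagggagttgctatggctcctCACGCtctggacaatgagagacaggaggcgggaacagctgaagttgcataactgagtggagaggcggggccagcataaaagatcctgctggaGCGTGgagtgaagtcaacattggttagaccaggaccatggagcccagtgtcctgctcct
Cyp2b19: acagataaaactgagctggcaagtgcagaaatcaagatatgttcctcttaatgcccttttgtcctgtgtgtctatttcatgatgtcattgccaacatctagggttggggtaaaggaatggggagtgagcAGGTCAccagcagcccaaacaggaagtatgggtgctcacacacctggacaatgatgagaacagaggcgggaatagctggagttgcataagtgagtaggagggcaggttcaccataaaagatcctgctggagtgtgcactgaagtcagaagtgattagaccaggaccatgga
Cyp1b1: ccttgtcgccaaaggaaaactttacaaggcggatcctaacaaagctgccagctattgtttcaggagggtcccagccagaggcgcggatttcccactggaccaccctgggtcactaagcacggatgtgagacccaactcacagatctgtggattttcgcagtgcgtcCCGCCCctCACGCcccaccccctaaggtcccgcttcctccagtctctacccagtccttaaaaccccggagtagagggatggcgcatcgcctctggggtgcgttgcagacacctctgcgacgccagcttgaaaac
The Cyp2b10 window held GCGTG on both strands, at -101 and -9 from the start, the Cyp1b1 window held it once, at -76 just after a GC box at -84, and the Cyp2b19 window held a nuclear receptor half-site at -121. GCGTG was found in 32.4% of 32851 windows of the same length and in 18.8% of 85 P450 windows. The half-site was found in 16.3% of all windows and in 25.9% of P450 windows, and the GC box in 35.7% and 21.2%. TATAAA was in none of the 3 printed windows, in 13.6% of all windows and in 40% of P450 windows, and the AP-1 element in none of the 3, in 7.81% of all and in 7.06% of P450 windows. In a global alignment the windows of Cyp2b10 and Cyp2b19 shared 229 identical bases of 300. Over all 5 Cyp2b genes the 10 pairs of windows shared 216 to 298 bases, while a Cyp2b window and another window of the same cluster shared 171 to 191. A match is a description of the letters, not a binding site.

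Cyp2b10, Cyp2b19 and Cyp2g1 lie in 1 cluster of 13 P450 genes on chromosome 7, of which 12 had a probe and 5 were measured. Of the 5, 2 were at least 2-fold lower, beside 6.62% of all measured genes, 4 were below 0, beside 50.6%, and the median was -0.71. Cyp2g1, known as a P450 of the olfactory mucosa, had a signal of 166 on the DKO-labelled array and 1687 on the Rac3-KO array, a difference of -2.36 or 5.12-fold lower. It was the only gene of the rest of family 2 to pass 2-fold among those measured on both arrays. Cyp2s1, an epithelial P450 found outside the liver, had signals of 647 and 2067 on the DKO-labelled and Rac3-KO arrays, and differed by -0.68. Cyp2f2, which activates naphthalene in mouse lung, had signals of 194 and 631 and differed by -0.71. Cyp2t4, at the far end of the cluster, had nearly equal signals of 42.4 and 46.6 and differed by 0.86. The Cyp2a genes with a probe, Cyp2a4, Cyp2a12 and Cyp2a22, were detected on neither array. The immediate neighbours were above 0, with Axl, a receptor tyrosine kinase gene beside Cyp2s1, at 1.39 and Egln2, an oxygen-sensing hydroxylase gene beside Cyp2t4, at 0.83. Of the genes farther out, Ccdc97 was at 0.40 and the splicing factor gene Snrpa at -0.68.

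**Figure D4:**
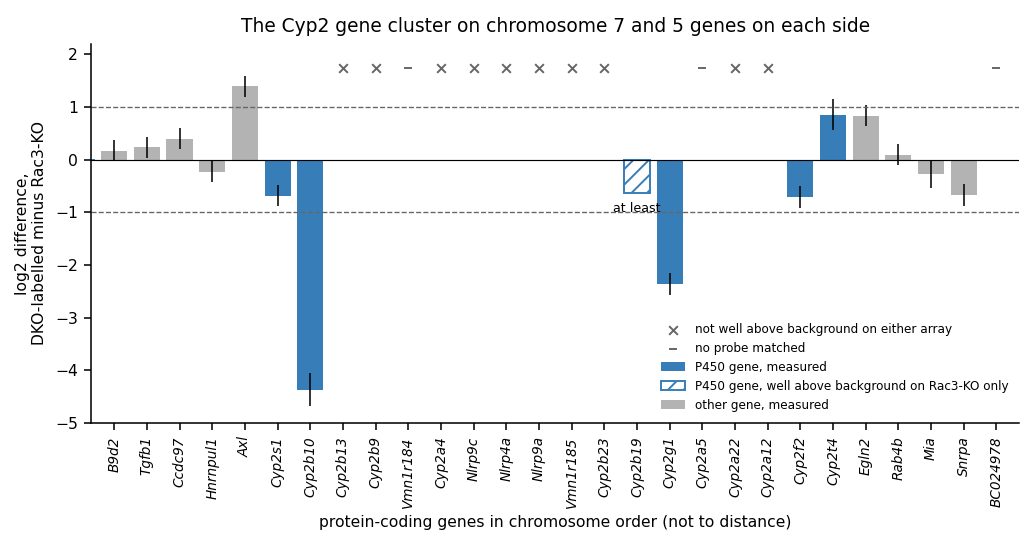
Log2 difference (DKO-labelled minus Rac3-KO) of the genes of the Cyp2 cluster on chromosome 7 and 5 protein-coding genes on each side, in chromosome order and not to distance; bars are measured genes with the software's signal error, blue for P450 genes and grey for others, and the hatched bar is the at-least value of Cyp2b19. Cyp2b10 and Cyp2g1 are the only bars below -1, and Cyp2t4 is the only measured P450 gene of the cluster above 0.

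Elsewhere in family 2 the measured differences stayed under 2-fold at each gene's brightest probe. The family without 2b had 16 measured genes of 40 and a median of 0.51, with Cyp2g1 and its cluster neighbours included. The Cyp2j genes, epoxygenases and hydroxylases of arachidonic acid, went both ways. Cyp2j9 had signals of 148 on the DKO-labelled array and 510 on the Rac3-KO array and differed by -0.79. Cyp2j6 had signals of 131 and 384 and differed by -0.56, while its dimmer probe, below background on the DKO-labelled array, had signals of 13.4 and 158 and differed by -2.58. The Cyp2j6 probes shared a direction and not a size, and their mean of -1.57 would pass 2-fold. Cyp2j8 differed by 0.03 and Cyp2j13 by 0.41, and a dimmer Cyp2j13 probe that was also measured differed by -0.29.

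Of the Cyp2c genes, which oxidise drugs and arachidonic acid mostly in liver, 2 were detected on the DKO-labelled array alone. Cyp2c55 had a signal of 43.5 on the DKO-labelled array and 28.8 on the Rac3-KO array, an at-least log2 value of 1.59 higher. With normexp that value was 1.01. Cyp2c37 had signals of 24.3 and 15.4, or at least 2.06-fold higher, and its other probe was below background on both arrays. The at-least log2 value of Cyp2c37 was 0.95 with median scaling and 0.85 with normexp, both under 2-fold. Of all genes detected on the DKO-labelled array alone, 79.6% had an at-least fold of 2 or more, so values of this size were usual for such genes. Cyp2c38, an epoxygenase, and Cyp2c70, which takes part in making mouse-specific bile acids, were measured at signals of 90.7 and 65.8 on the DKO-labelled array and 101 and 80.1 on the Rac3-KO array, and differed by 0.83 and 0.71. The Cyp2d genes on chromosome 15, counterparts of a human drug-metabolising enzyme, lay close together, with Cyp2d34, Cyp2d11, Cyp2d12 and Cyp2d22 between 0.61 and 0.89, and for Cyp2d22 the signals of 65.6 on the DKO-labelled array and 70.2 on the Rac3-KO array were nearly equal without scaling. Cyp2d26 was detected on the Rac3-KO array alone, at least 1.32-fold lower, and Cyp2d13 likewise, with no at-least fold above 1. The Cyp2c and Cyp2d genes have near-identical copies, and their probes may share signal.

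The remaining family 2 genes included Cyp2e1, the ethanol-oxidising P450, with signals of 69.8 on the DKO-labelled array and 169 on the Rac3-KO array. Its difference was -0.28, inside the 95% range of its signal error. A dimmer Cyp2e1 probe that was also measured had signals of 24.8 and 46.2 and differed by 0.09. Cyp2r1, which carries out the first hydroxylation of vitamin D, had signals of 842 and 885 and differed by 0.92 at its brighter probe, while its other probe, with signals of 55.7 and 121, differed by -0.13. The mean over both probes was 0.40, so the Cyp2r1 value depends on the probe. Cyp2w1 was detected on the Rac3-KO array alone, at least 1.08-fold lower. Cyp2u1 had signals of 4.39 on the DKO-labelled array and 31.9 on the Rac3-KO array and was well above background on neither.

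Family 1 contains the textbook targets of the aryl hydrocarbon receptor, and 1 of its 3 genes was measured. Cyp1b1, which oxidises oestradiol, retinoids and polycyclic hydrocarbons and is common in mesenchymal cells, had a signal of 931 on the DKO-labelled array and 525 on the Rac3-KO array. This was the highest difference among measured P450 genes, 1.82 (signal error 0.20) or 3.53-fold higher. Cyp1a1, the most inducible target of the receptor, was detected on the Rac3-KO array alone, with signals of 12.2 on the DKO-labelled array and 35.0 on the Rac3-KO array, and had no at-least fold above 1. Cyp1a2 was detected on neither array. The receptor gene Ahr differed by -0.36 and its partner Arnt by -0.23. Of all measured genes, 7.71% were higher and 6.62% lower by 2-fold or more. Of 7 measured receptor targets outside the P450 family, 1 was higher and 2 lower by that much (median -0.47). The 2 lower ones were the glutathione transferase genes Gsta2 at -3.49 and Gsta1 at -3.04, which are near-identical copies. The higher one was the aldehyde dehydrogenase gene Aldh3a1 at 1.04 at its brightest probe. The differences of all Aldh3a1 probes, detected or not, had an SD of 1.42, so that value depends on the probe. Beside the Cyp1b1 value, 10 of 10 fibroblast markers were above 0, against 49.4% of all measured genes, and 2 were at least 2-fold higher. Their summed level was 2631 times the 75th percentile on the DKO-labelled array and 1500 times on the Rac3-KO array.

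Subfamily 4f, the omega-hydroxylases of leukotrienes and very long fatty acids, had small differences. All 4 measured genes stayed under 2-fold, with a median of 0.20. Cyp4f13 had signals of 400 on the DKO-labelled array and 673 on the Rac3-KO array and differed by 0.24. Cyp4f16 had signals of 154 and 351 and differed by -0.20, and Cyp4f17 had signals of 201 and 359 and differed by 0.15. These 3 differences were inside the 95% range of the signal error. Cyp4f18, which inactivates leukotriene B in mouse neutrophils, had signals of 310 and 411 and differed by 0.59. Leukocyte markers were at least 2-fold higher in 5 of 9 cases, beside 7.71% of all measured genes. Cyp4f40 was detected on the Rac3-KO array alone, with signals of 4.36 on the DKO-labelled array and 41.8 on the Rac3-KO array, or at least 1.05-fold lower, and Cyp4f14, Cyp4f15 and Cyp4f37 on neither.

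The rest of family 4 ran in both directions. Cyp4x1, an orphan P450 best known from brain, was detected on the Rac3-KO array alone, with a signal of 4.70 on the DKO-labelled array and 207 on the Rac3-KO array. It was at least 5.18-fold lower, the only member whose at-least fold reached 2 on that side, beside 21.9% of all genes detected on the Rac3-KO array alone. With normexp the at-least log2 value was -0.85, under 2-fold. Cyp4b1, a fatty acid hydroxylase of lung and surface epithelia, lies in the same cluster on chromosome 4 and had signals of 726 on the DKO-labelled array and 1935 on the Rac3-KO array, a difference of -0.42. The Cyp4a genes between them are fatty acid omega-hydroxylases driven by the receptor Ppara. Cyp4a10 had nearly equal signals of 66.1 and 67.7 and differed by 0.96. Cyp4a31 had signals of 37.7 and 32.1 and differed by 1.22 or 2.33-fold higher, a value that was 0.85 with normexp and 0.87 as the mean over its 3 probes, and Cyp4a31 no longer counted as measured under the stricter filter. Both genes are dim, and the Cyp4a genes are close copies whose probes may share signal. The receptor gene Ppara itself was 2.31-fold higher, with signals of 651 on the DKO-labelled array and 561 on the Rac3-KO array. Cyp4v3, the mouse counterpart of a fatty acid hydroxylase of the human retina, differed by 0.67.

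Family 26 clears retinoic acid, and Cyp26b1 was its only detected gene. It had a signal of 14249 on the DKO-labelled array and 24043 on the Rac3-KO array, a difference of 0.24 that was inside the 95% range of its signal error, 0.20. Cyp26a1 and Cyp26c1 were detected on neither array. The enzymes and carriers that supply retinoic acid went both ways, with 3 of 18 measured genes at least 2-fold higher, 2 at least 2-fold lower and a median of -0.16. The shares of all measured genes were 7.71% higher and 6.62% lower. Sdr16c6 and Crabp1, a retinol dehydrogenase relative and a retinoic acid carrier, were 5.05-fold and 3.39-fold lower, and Sdr16c5, an epidermal retinol dehydrogenase, detected on the Rac3-KO array alone, was at least 8.50-fold lower. Aldh1a1, which makes retinoic acid, and Rdh12, a retinal reductase, were 2.45-fold and 2.10-fold higher. The retinoic acid receptor gene Rarg, the main such receptor of epidermis, had signals of 4145 on the DKO-labelled array and 15778 on the Rac3-KO array and differed by -0.94.

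Vitamin D enzymes of family 27 sat at the detection limit. Cyp27b1, which makes the active hormone, had signals of 21.6 on the DKO-labelled array and 23.7 on the Rac3-KO array and passed the background flag on the DKO-labelled array alone, at least 1.82-fold higher on the scaled level although the unscaled signals were nearly equal. Cyp27a1, a mitochondrial sterol hydroxylase, was read by 10 spots of a single probe. Their signals ran between 9.51 and 30.4 with a median of 16.1 on the DKO-labelled array, where 3 of 10 spots passed the background flag. On the Rac3-KO array they ran between 29.0 and 49.0 with a median of 40.1, and 10 of 10 passed. The highest DKO-labelled spot lay above the lowest Rac3-KO spot, and no at-least fold above 1 could be given. Cyp24a1, which inactivates the hormone and is its most responsive target gene, was detected on neither array. The vitamin D receptor gene Vdr had signals of 708 on the DKO-labelled array and 2523 on the Rac3-KO array and differed by -0.84.

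Among the other families, 3 steroid-making P450 genes were measured and all were above 0. Of all 35 measured P450 genes 68.6% were above 0, and of all measured genes 49.4%. Cyp17a1, the enzyme that leads steroids to androgens, had signals of 5724 on the DKO-labelled array and 4514 on the Rac3-KO array, a difference of 1.33 (signal error 0.20) or 2.52-fold higher. Cyp11a1, the enzyme that cuts the side chain of cholesterol, had signals of 780 and 872 and differed by 0.83. Cyp21a1, the adrenal steroid hydroxylase, had signals of 116 and 134 and differed by 0.79. Cyp11b1, Cyp11b2 and Cyp19a1, which make corticosteroids and oestrogens, were detected on neither array. Other genes of steroid-making cells were mostly undetected, with the steroid dehydrogenase gene Hsd3b1 and the gonadotropin receptor genes Fshr and Lhcgr undetected on both arrays, the cholesterol carrier gene Star detected on the DKO-labelled array alone, at least 2.87-fold higher, and the regulator Nr5a1 at signals of 164 on the DKO-labelled array and 222 on the Rac3-KO array. Outside the P450 family, 14 steroid and sterol enzymes were measured. Of these, 1 was at least 2-fold higher, Hsd11b1 at 1.18, and 6 were at least 2-fold lower. The cholesterol sulfotransferase gene Sult2b1 at -1.97 and the cholesterol hydroxylase gene Ch25h at -1.50 led the lower ones. The shares of all measured genes were 7.71% higher and 6.62% lower.

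The oxysterol and bile acid enzymes stayed under 2-fold where measured. Cyp39a1, which acts on oxysterols made in brain, had signals of 1267 on the DKO-labelled array and 3774 on the Rac3-KO array and differed by -0.58, and Cyp7b1, the other oxysterol hydroxylase, had signals of 196 and 407 and differed by -0.06. Cyp46a1, the cholesterol hydroxylase of neurons, had signals of 125 and 134 and differed by 0.89. Cyp7a1 and Cyp8b1, the liver enzymes of bile acid synthesis, were detected on neither array. Of the Cyp3a drug-oxidising genes, Cyp3a13 differed by 0.55 at its brighter probe. Its other probe, which did not pass the background flag on the DKO-labelled array, differed by -0.44. That probe had signals of 22.7 on the DKO-labelled array and 61.3 on the Rac3-KO array. Cyp3a11 was detected on the Rac3-KO array alone, at least 1.14-fold lower. The orphan P450 gene Cyp20a1 had signals of 487 and 718 and differed by 0.43.

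Genes that work with P450 enzymes were read from lists chosen with earlier results of these data known. Por, the electron donor of microsomal P450 enzymes, had signals of 4626 on the DKO-labelled array and 6118 on the Rac3-KO array and differed by 0.59, while Fdx1 and Fdxr, the mitochondrial donors, differed by 0.21 and -0.61. Of 16 measured genes of electron and haem supply, 1 was at least 2-fold higher and 0 lower (median -0.01), and that gene, Hmox1, which breaks haem down, had signals of 39618 and 11316 and was 6.96-fold higher. Cpox, a haem synthesis enzyme, was the lowest at -0.81. Of 20 measured receptors and regulators, only Ppara passed 2-fold (median 0.13). Beside both lists, 7.71% of all measured genes were higher and 6.62% lower by 2-fold or more. Nr1i3, the receptor through which phenobarbital acts on Cyp2b10 in liver, was detected on the Rac3-KO array alone, with signals of 11.2 and 52.9 and an at-least fold of 1.32 lower, and its relative Nr1i2 was detected on neither.

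The enzymes that conjugate P450 products went both ways, with 3 of 32 measured genes at least 2-fold higher, 4 at least 2-fold lower and a median of 0.01. Gsta2 and Gsta1 were 11.2-fold and 8.22-fold lower, and Ugt1a10, a glucuronosyltransferase, and Sult1a1, a phenol sulfotransferase, were 2.70-fold and 2.33-fold higher. Of 29 other oxidative enzymes, 6 were higher and 2 lower by 2-fold or more (median 0.57), beside the same shares of all measured genes. Xdh, xanthine oxidoreductase, and Akr1c19, an aldo-keto reductase, were 3.93-fold and 2.89-fold higher, and Aox4, an aldehyde oxidase, and Aldh3b2, an aldehyde dehydrogenase, were 9.24-fold and 4.60-fold lower. Of 23 eicosanoid enzymes, 3 were higher and 4 lower by 2-fold or more (median -0.02), again beside those shares. Alox5 and Alox5ap, the leukotriene pair of leukocytes, were 2.51-fold and 2.32-fold higher. Leukocyte markers were above 0 in 9 of 9 cases, beside 49.4% of all measured genes. Pla2g2f, a phospholipase of suprabasal epidermis, and Alox12, a lipoxygenase, were 7.19-fold and 3.88-fold lower beside keratinocyte markers that were mostly lower. The part of the cell mixture in these values was not tested.

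**Figure D5:**
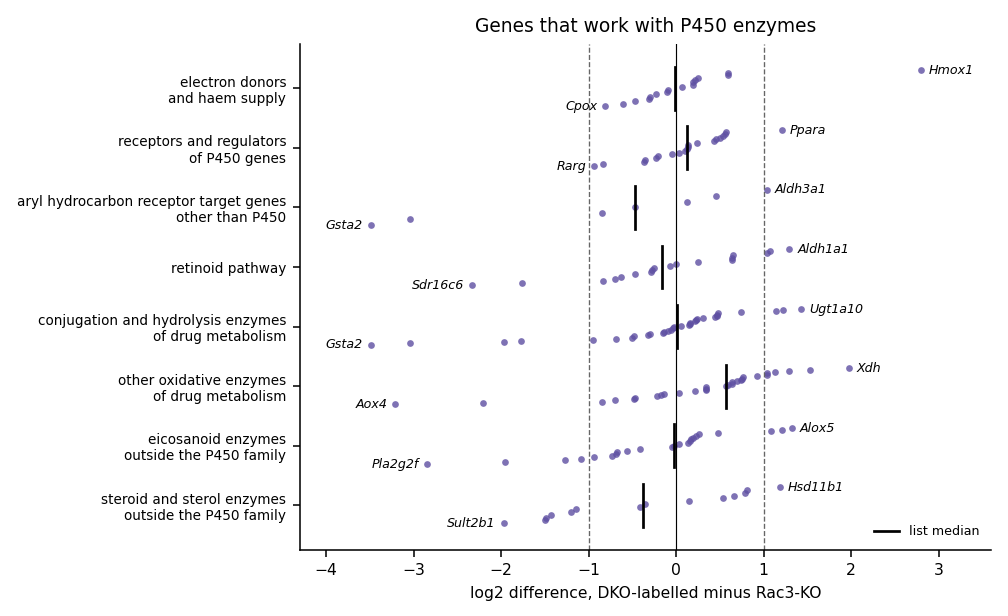
Log2 difference (DKO-labelled minus Rac3-KO) of the measured genes of 8 lists of genes that work with P450 enzymes; points are genes, black bars list medians, dashed lines 2-fold, and the lowest and highest gene of each list is named. Hmox1 at 2.80 and Gsta2 at -3.49 are the widest apart, while list medians lie between -0.47 and 0.57.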

How the data were processed

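RNA was amplified to Cy3-labelled cRNA per the labels' protocols and hybridised to 1 array per genotype. The deposited scanner files hold spot intensity. Per the file headers it came from Feature Extraction 10.10.1.1, while version 9.1 stands in the submitters' processing notes. Fits of a spatial detrending within each array stand in the same headers, and the deposited processed signal was not at a common scale between arrays. The software's detection and outlier flags are deposited as other values. The authors' deposited table of log2 values matched the log2 processed signal less 1 constant per array for 100% of single-spot probes, within 0.001. Its column medians are -3.62 for the DKO-labelled array and -3.72 for Rac3-KO. Slide and scan were shared by both arrays.

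Spots of a probe were averaged on the log2 scale, without control spots and without 190 and 155 feature outliers on the DKO-labelled and Rac3-KO arrays, which left 55678 probes, and the 75th percentile was subtracted. A probe was well above background when most of its spots were. Accessions were matched, without versions, to the RefSeq gene table of GRCm38.p6, used for names and gene order, whereas the array design names mm9; 26580 probes received a gene. Each gene took the probe of highest mean level. It counted as detected on a single array when any of its probes passed there and none on the other. Such a gene received an at-least fold: its brightest passing probe there was set against that probe's level on the other array, or against the lowest passing level of the other array if that was higher, and no fold was given under 1. No saturated spot was present. Repeated spots differed with a median SD of 0.09 and probes of a gene with a root mean square of 0.38 (log2) over all genes. Over the 3 P450 genes with several measured probes it was 0.54, and 1 of them had probes at least 1 apart. The number of arrays limits the precision.

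With 1 array per genotype no test was run. Named members were those at least 2-fold apart, those whose at-least fold reached 2, all measured genes of families 1, 26 and 27 and of 2b and 4f, and up to 2 each way elsewhere; other members, the probe pairs and further partner genes were named after their values were seen, so that every detected member appears. From each list of partners up to 2 genes each way were named. Members and lists were chosen with earlier results of these data known. Clusters joined P450 genes separated by at most 10 other protein-coding genes. Computation used Python 3.11.15, pandas 2.3.3, R 4.3.3 and limma 3.58.1, the last for normexp with an offset of 50 on the median spot signal, and was tested on simulated data.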

Additional observations from a re-analysis of the deposited data

How the results depend on the processing

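With 1 array per genotype no array could be left out. No paired analysis was possible because each genotype had 1 array. The counts of 2 lower and 3 higher members became 7 and 10 of 93 with no filter on dim probes. Under that setting 7.55% of all 20144 named genes were lower and 10.5% higher by 2-fold or more. At a threshold of 1.5-fold the counts were 5 and 17. No share over all genes is given here for that threshold, so these counts cannot be set against genes at large. On the spike-in scale the counts past 2-fold were 32 and 0, where 93% of all measured genes were at least 2-fold lower. The stricter filter left 1 lower member, Cyp2g1, since Cyp2b10 no longer counted as measured, and a threshold of 3-fold left 1 higher. Averaging all probes of a gene added Cyp2j6 at -1.57 to the lower members. Median scaling moved the median of all measured genes by -0.10. On the spike-in scale the median of the measured members was -1.50, and the group medians were -0.23 for family 1, -6.42 for 2b, -1.54 for the rest of family 2, -1.85 for 4f, -1.24 for the rest of family 4, -1.81 for family 26 and -1.38 for the other families; Cyp17a1, Cyp1b1 and Cyp4a31 then were at -0.72, -0.23 and -0.83 and the at-least values of Cyp2c37 and Cyp2c55 at -1.01 and -0.46. On that scale the median of all measured genes was -2.06. With no filter the medians were 1.46 for family 1, -0.44 for 2b, 0.41 for 4f and 0.61 for family 26. Averaging all probes of a gene gave a median of 0.29 for all members and 0.24 for the rest of family 2; with the mean over detected probes the rest of family 2 had 0.23, and with the stricter filter 0.030. With normexp 2b was at -2.88, and the cause was not tested. Of 217 values of named members under alternatives, 188 moved by less than the signal error, 24 by more, and 5 of genes past 2-fold changed sign, those named above on the spike-in scale. Many of the 188 could hardly move. A change of filter leaves the value of a gene that is still measured as it was, and averaging probes leaves a gene with 1 probe as it was. The authors' table is the same signal less a constant. The count of 188 thus does not measure how firm the values are. Among genes under 2-fold, signs also changed on the spike-in scale and, for Cyp7b1, with normexp (0.03). The signal over background limits every dim member.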
